A study of Caenorhabditis elegans with 3 samples.

Results

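The FMRFamide-like peptide genes (flp genes) of Caenorhabditis elegans encode precursors of short neuropeptides. They were taken as every gene whose deposited symbol starts with flp-, which gave 31 of the 19194 genes in the deposited series table. Their polyadenylated RNA was read by nanopore direct RNA sequencing, in which native RNA strands pass through the pore without copying into cDNA, in 3 libraries of the laboratory strain N2. One library came from mixed-stage embryos, 1 from L1 larvae, the stage that follows hatching, and 1 from young adults, the last 2 from whole worms. No other genotype or treatment is given in the labels, which give no hours of age either. There was 1 library per stage, so no difference here has a replicate check, and every interval is a 95% interval for counting error between libraries and not between stages. The reads are the authors' estimates, rounded. The intervals treat them as counted reads and leave out any error of the estimates.

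FLP precursors are cut at basic residues, trimmed and amidated inside dense-core vesicles, and most of the released peptides end in arginine and phenylalanine amide. They act on G protein-coupled receptors, often at a distance from the releasing neuron. In C. elegans they are made mostly by neurons, and single peptides are known for parts in locomotion, sleep, egg laying, feeding, fat use and mating.

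The libraries held 941707 estimated reads for embryos, 1017061 for L1 larvae and 1611049 for young adults. Reads are given as whole estimated reads, and levels as RPM, the reads in every 1000000 of the library. A native RNA read stands for 1 RNA strand, so levels were not divided by transcript length. The annotated flp mRNAs were short, with a median longest mRNA of 633 bases against 1300 for 14672 coding genes. A gene at 0 reads could still hold 3 reads, or 3.19 RPM in the embryo library, 2.95 in that of L1 larvae and 1.86 in that of young adults.

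The flp genes were highest in the L1 library. Together they had 214 embryo, 6580 L1 and 784 young adult reads, which is 227, 6470 and 487 RPM. Their joint share was 28.5-fold higher in the L1 than in the embryo library (24.8 to 32.8) and 13.3-fold lower in the young adult than in the L1 library (12.3 to 14.3). The young adult share was 2.14-fold the embryo share (1.84 to 2.50). Read totals can be moved by a few abundant genes, and with edgeR TMM factors, which scale libraries on the bulk of genes, the L1 share was 52.1-fold the embryo share (45.5 to 60.0) and the young adult share 3.73-fold (3.20 to 4.35). By point value the L1 library was the highest of the 3 for 31 of 31 members. For flp-23 and flp-34, which had few reads, the L1 to embryo intervals included 1 (lower bounds 0.38 and 0.50). The share of all genes with this order was not counted. These sums need no read minimum. In RNA of whole animals, fewer cells of a type and less RNA per cell cannot be told apart.

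Reads were seen for 28 members among embryo reads, 31 among L1 reads and 30 among young adult reads. The member median was 5 embryo reads (0 to 23), 135 L1 reads (3 to 932) and 16 young adult reads (0 to 88). The 3 members at 0 in the embryo library were flp-17, flp-20 and flp-23, and flp-23 was also at 0 in the young adult library. The rarest member, flp-23, had 3 L1 reads in all, and flp-34 had 5 embryo, 9 L1 and 3 young adult reads.

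**Figure D1:**
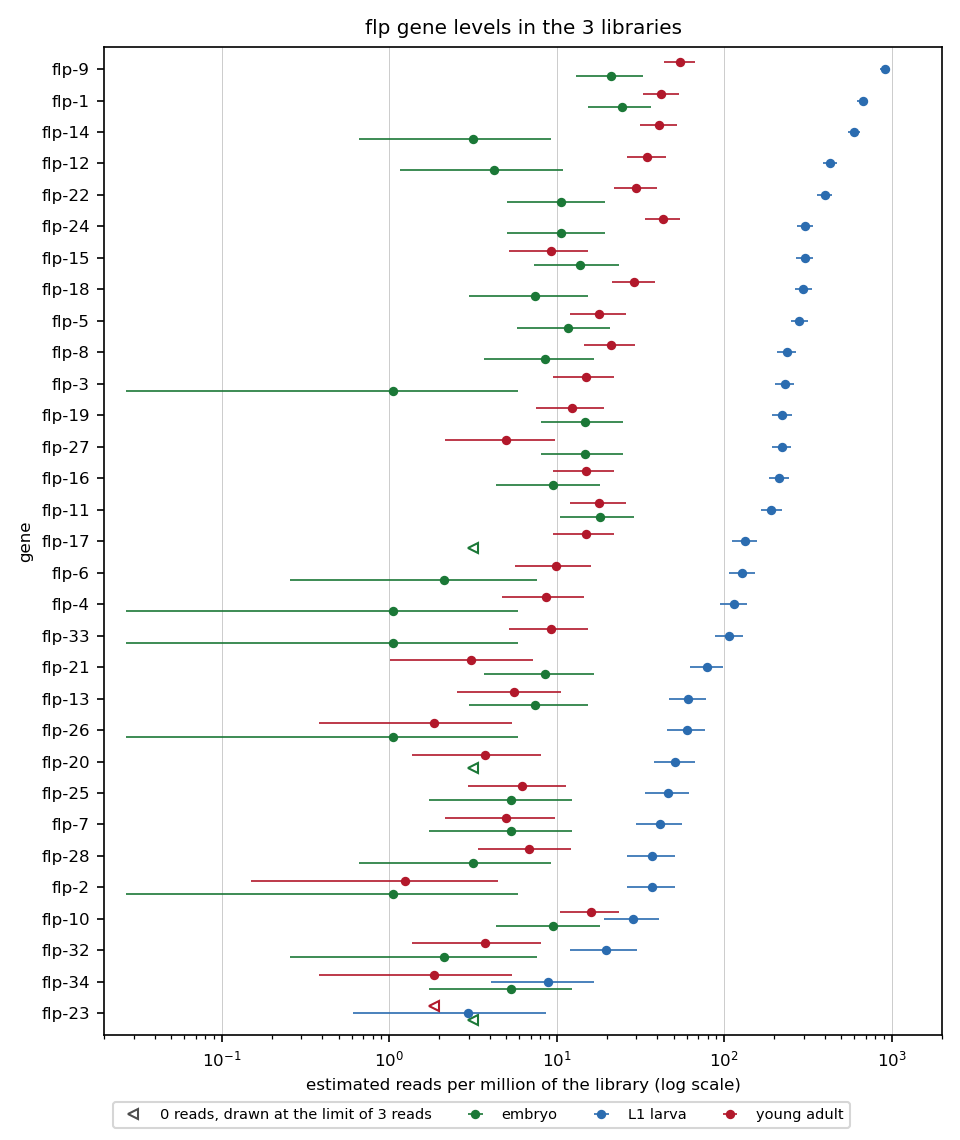
Estimated RPM (log axis) of the 31 flp genes in the embryo, L1 and young adult libraries, in order of L1 reads, with exact Poisson 95% intervals; open triangles mark 0 reads at the limit of 3 reads. The L1 points run from 916 RPM for flp-9 to 2.95 for flp-23. They lie to the right of both others, except for flp-23, where the embryo limit is drawn at 3.19.

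A single gene was compared between 2 libraries where it had at least 20 reads over both. It was called higher or lower where the 95% bound of the ratio of read shares nearest to 1 was at least 2-fold from 1. Of the members, 28 were called higher in the L1 than in the embryo library and 0 lower, against 13.4% of 8382 genes called higher and 33% called lower. The other 3 were flp-10, which was measured and not called, and flp-23 and flp-34, which had too few reads. Only 2 members, flp-1 and flp-9, had 20 embryo reads, so the rest passed the minimum through their L1 reads and the count is a description. The median log2 ratio of the 29 measured members was 4.72, against -1.14 over the 8382 genes. With TMM factors, which moved the median of all genes to -0.27, 29 members were called higher, against 18.8% of genes called higher and 13.5% called lower.

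In the young adult library 28 members were called lower than in the L1 library and 0 higher, against 14.2% of 8043 genes called lower and 14.5% called higher. The 3 that were not called were again flp-10, flp-23 and flp-34. Only 15 members had 20 young adult reads, so the others that were measured passed the minimum through their L1 reads, and this count and its median are a description too. The median log2 ratio of the 29 measured members was -3.67, against 0.32 over all genes measured. Between the young adult and embryo libraries 17 members had enough reads, of which 5 were called higher and 0 lower, against 13.2% of 8636 genes called higher and 29.3% called lower. Those 5 were flp-3, flp-12, flp-14, flp-17 and flp-24. Each had at least 20 young adult reads and at most 10 embryo reads. They passed the minimum through their young adult reads, so this count is likewise a description. With TMM factors 8 were called higher, against 19.6% of genes called higher and 17.3% called lower, and the added genes were flp-9, flp-18 and flp-22. This last comparison therefore depended on the scaling.

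**Figure D2:**
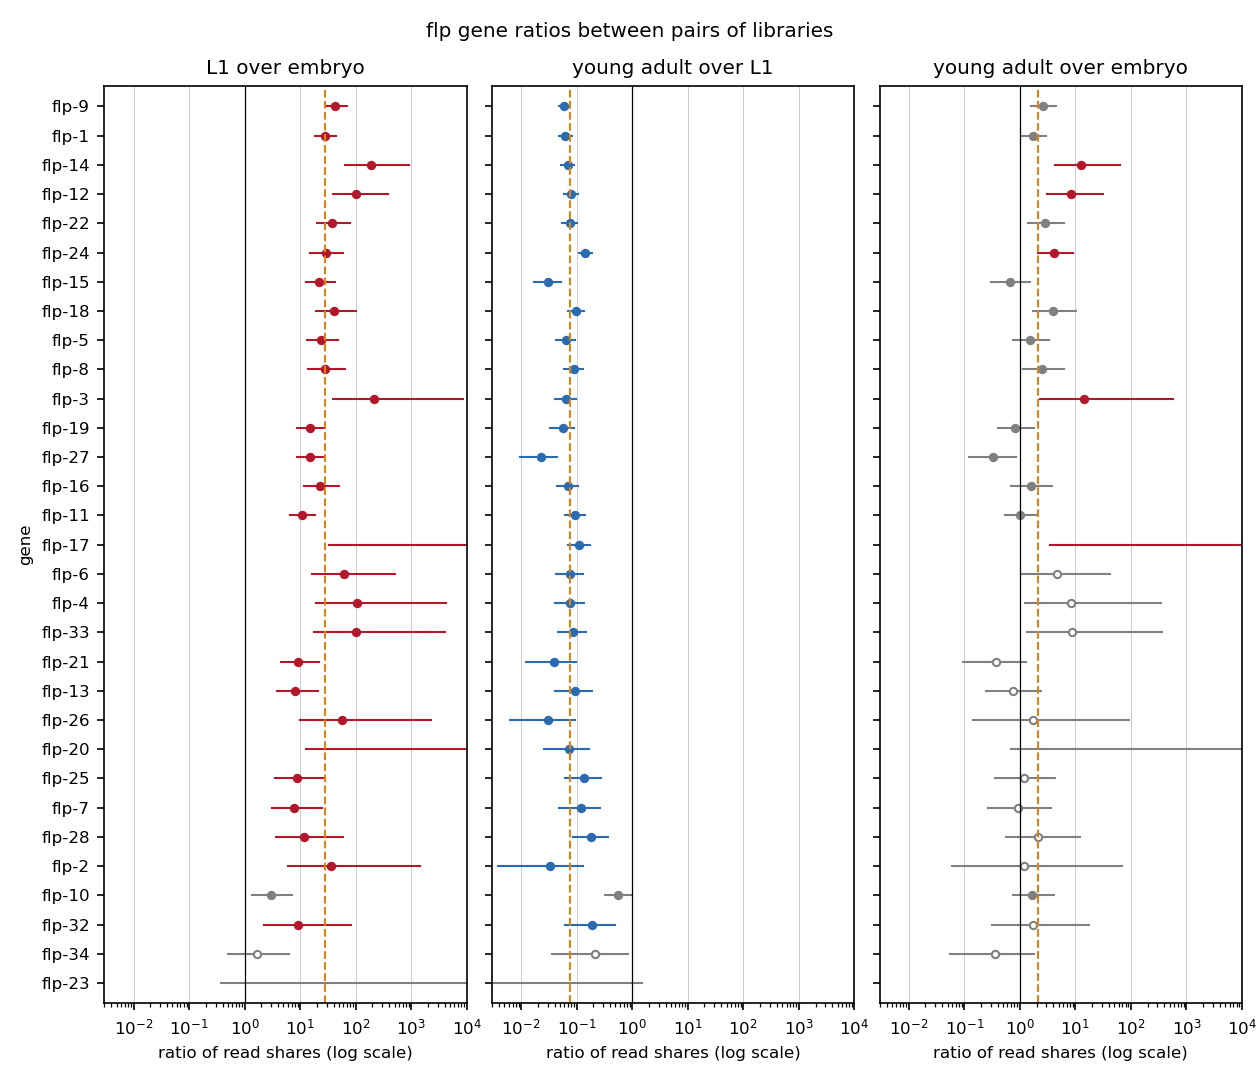
Ratio of read shares (log axis) of each flp gene in 3 pairs of libraries, in order of L1 reads, with exact 95% intervals cut at the axis limits; red is called higher, blue called lower, grey not called, open circles under 20 reads over both libraries, a bar without a point has 0 reads in 1 library, and the dashed line is the joint ratio of the 31 genes (28.5, 0.0752 and 2.14). In the middle panel flp-10 stands nearest to 1.

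The leading gene of the L1 library was flp-9 (C36H8.3; chromosome IV, 12754558 to 12757570, minus strand, WBcel235), with 20 embryo, 932 L1 and 88 young adult reads. It was 43.1-fold higher in the L1 than in the embryo library (27.8 to 71.0) and 16.8-fold lower in the young adult than in the L1 library (13.5 to 21.1). No other member had an L1 interval that reached that of flp-9. Its lead was smaller elsewhere: flp-24, flp-1, flp-14 and flp-12 had young adult levels whose intervals overlapped it, and in the embryo library flp-1 led with 23 reads, with the intervals of 12 members overlapping its own. Among 30 pairs of neighbours in the order of levels, the intervals were apart for 4 in the L1 library and for 0 in the other libraries. Over the 31 genes Spearman's rho of the reads was 0.84 between the L1 and young adult libraries and 0.54 between the embryo and L1 libraries, where many embryo values rest on under 10 reads. The 5 leading members held 41.1% of flp reads in embryos, 46.6% in L1 larvae (45.3 to 47.8) and 44.4% in young adults, and flp-1 and flp-9 were among them each time.

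Genes of locomotion and arousal were among both the most and the least abundant members. The gene flp-1 (F23B2.5), whose peptides modulate locomotion, had 23 embryo, 683 L1 and 68 young adult reads. It was 27.5-fold higher in the L1 than in the embryo library (18.2 to 43.7) and 15.9-fold lower in the young adult than in the L1 library (12.4 to 20.7), close to the joint ratios. The arousal gene flp-2 had 1 embryo, 38 L1 and 2 young adult reads, 30.1-fold lower in the young adult than in the L1 library (7.78 to 258).

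Of the sleep peptide genes, flp-24 was called higher in young adults than in embryos, flp-11 was measured and not called, and flp-13 had too few reads in that pair. The gene flp-11, which encodes the main sleep-promoting peptides of the RIS neuron, had 17 embryo, 195 L1 and 29 young adult reads. Its L1 share was 10.6-fold the embryo share (6.46 to 18.6), an interval below the joint ratio of the other members, and its level was 18.1 RPM in embryos and 18 in young adults. The gene flp-13, expressed in the ALA neuron and needed for sleep after stress, had 7 embryo, 62 L1 and 9 young adult reads, 8.20-fold higher in the L1 than in the embryo library (3.75 to 21.2). The gene flp-24 (C24A1.1), also of the ALA neuron, had 10 embryo, 309 L1 and 70 young adult reads. It was 6.99-fold lower in the young adult than in the L1 library (5.38 to 9.20), a smaller difference than that of the other members together. Its young adult share was 4.09-fold the embryo share (2.10 to 8.90), an interval apart from that of flp-11 (0.53 to 1.93 as a ratio). As a share of all flp reads it was 4.70% in L1 larvae (4.20 to 5.24) and 8.93% in young adults (7.03 to 11.2), where its reads were the second highest. Together the 3 sleep genes were 15.4-fold higher in the L1 than in the embryo library (10.9 to 22.5).

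The genes for ligands of the receptor NPR-1 differed in level. The gene flp-18, whose peptides act on NPR-1, NPR-4 and NPR-5, had 7 embryo, 303 L1 and 47 young adult reads. The gene flp-21, which encodes another NPR-1 ligand, had 8 embryo, 80 L1 and 5 young adult reads. The L1 share of flp-18 was 40.1-fold the embryo share (19.2 to 100.5), while that of flp-21 was 9.26-fold (4.48 to 22.2), and these intervals overlap. In young adults flp-18 was 10.2-fold lower than in L1 larvae (7.49 to 14.2) and flp-21 25.3-fold lower (10.4 to 80.2), again with overlapping intervals. The gene flp-7, whose peptide acts in a neuron-to-gut axis of fat loss, had 5 embryo, 42 L1 and 8 young adult reads.

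Genes for ligands of the receptor EGL-6, which holds back egg laying, had similar young adult reads and L1 reads that were apart. The gene flp-10 (T06C10.4; chromosome IV, 7868907 to 7870081, plus strand) had 9 embryo, 29 L1 and 26 young adult reads. Its L1 share was 2.98-fold the embryo share (1.37 to 7.16), not called, or 5.46-fold and called with TMM factors. Its young adult share was 1.77-fold lower than the L1 share (1.004 to 3.12), not called, whereas the remaining measured members lay between 5.28-fold lower for flp-32 and 44.6-fold lower for flp-27. It made up 0.441% of L1 flp reads (0.295 to 0.632) and 3.32% of young adult flp reads (2.18 to 4.82). The gene flp-17, expressed in the carbon dioxide-sensing BAG neurons and encoding the other EGL-6 ligand, had 0 embryo, 135 L1 and 24 young adult reads. Over embryos, its L1 share was at least 33.4-fold and its young adult share at least 3.52-fold, by the lower 95% bounds. The gene flp-19, which BAG neurons also express, had 14 embryo, 226 L1 and 20 young adult reads, and was 17.9-fold lower in the young adult than in the L1 library (11.3 to 29.9), an interval apart from that of flp-10.

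Genes known from male turning during mating, a behaviour in which they also act with flp-10, were flp-8, flp-12 and flp-20. The gene flp-12 had 4 embryo, 439 L1 and 56 young adult reads and was 102-fold higher in the L1 than in the embryo library (39.4 to 375). The gene flp-8 had 8 embryo, 241 L1 and 34 young adult reads and was 27.9-fold higher in the L1 than in the embryo library (13.9 to 65.4), an interval that included the joint ratio of the other members. The gene flp-20, which touch receptor neurons express, had 0 embryo, 52 L1 and 6 young adult reads, and its L1 share was at least 12.6-fold the embryo share, by the lower 95% bound. Together these 3 genes were 56.5-fold higher in the L1 than in the embryo library (32.1 to 109.8), with most of their reads from flp-12.

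Among the members without an assigned role, flp-14 and flp-3 had the steepest embryo-to-larva differences by point value. The gene flp-14 (Y37D8A.15; chromosome III, 12910510 to 12914783, plus strand) had 3 embryo, 605 L1 and 66 young adult reads, 187-fold higher in the L1 than in the embryo library (63.6 to 908). Behind flp-9 and flp-1 it had the most L1 reads of the family and, with 3 reads, fewer embryo reads than the median member. The gene flp-3 had 1 embryo, 234 L1 and 24 young adult reads, 217-fold higher in the L1 library (38.5 to 8594). Its neighbours flp-2 and flp-28 lie with it in 7.93 kb of chromosome X, all on the minus strand. There flp-28 had 3 embryo, 38 L1 and 11 young adult reads, so that flp-2 and flp-28, equal in the L1 library, were 30.1-fold and 5.47-fold (2.74 to 11.9) lower in the young adult library. Their intervals overlap.

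By point value, flp-27 and flp-15 were the farthest below their L1 level in the adult library. The gene flp-27 (C25H3.5; chromosome II, 5681003 to 5682667, plus strand) had 14 embryo, 225 L1 and 8 young adult reads, 44.6-fold lower in the young adult than in the L1 library (22.2 to 104.5). In the adult library it was also 2.99-fold lower than in the embryo library (1.17 to 8.24), which was not called. The gene flp-15, which encodes ligands of the receptor NPR-3, had 13 embryo, 308 L1 and 15 young adult reads, 32.5-fold lower in the young adult than in the L1 library (19.4 to 58.8). The gene flp-26 had 1 embryo, 61 L1 and 3 young adult reads, with a wide interval around 32.2-fold (10.5 to 160.5).

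The 8 remaining members were each called higher in the L1 than in the embryo library and lower in the young adult than in the L1 library. The gene flp-22 had 10 embryo, 405 L1 and 48 young adult reads, and flp-5 had 11, 286 and 29. The gene flp-16 had 9 embryo, 217 L1 and 24 young adult reads, and flp-6 had 2, 131 and 16. These 4 were 22.3-fold to 60.7-fold higher in the L1 than in the embryo library and 13-fold to 15.6-fold lower in the young adult than in the L1 library. The gene flp-4 had 1 embryo, 116 L1 and 14 young adult reads, and flp-33 had 1, 109 and 15. The gene flp-25 had 5 embryo, 47 L1 and 10 young adult reads, and flp-32 had 2, 20 and 6, the lowest L1 level of a called member.

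Some members had intervals that did not include the joint ratio of the other members, which was taken as a point without its own counting error. Among 29 intervals of 95%, a few can miss such a point through counting error alone. For the L1 and embryo libraries, the 95% interval lay above the joint ratio of the other members for 5 of 29 measured members (flp-3, flp-9, flp-12, flp-14 and flp-17). It lay below for 8 (flp-7, flp-10, flp-11, flp-13, flp-19, flp-21, flp-25 and flp-27). For the young adult and L1 libraries it included that ratio for 23 of 29. Here flp-10, flp-24 and flp-28 lay nearer to 1 than the other members together, and flp-9, flp-15 and flp-27 lay farther from it.

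**Figure D3:**
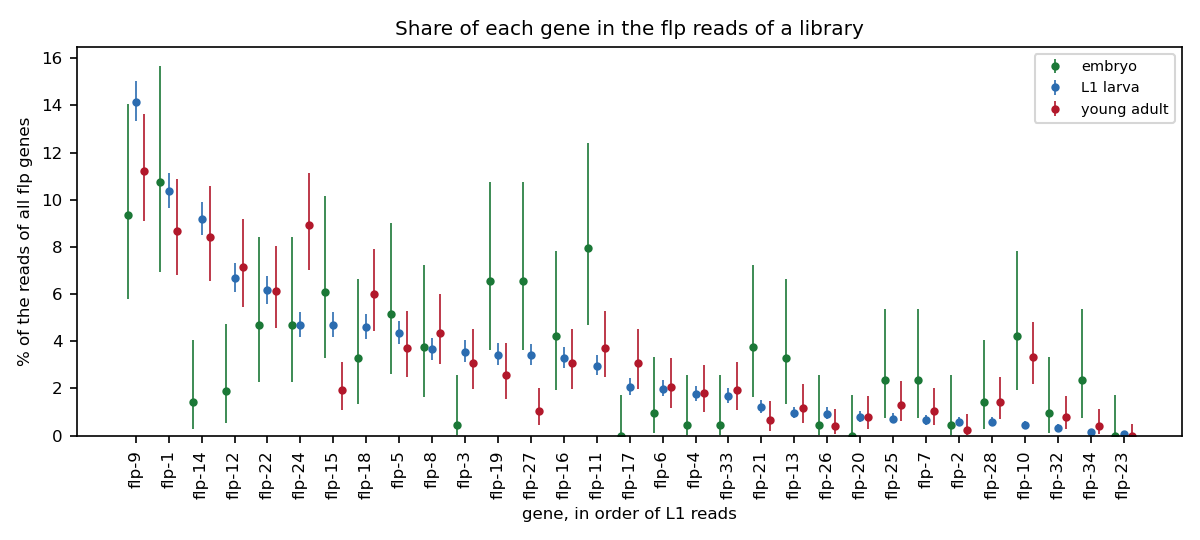
Share of each flp gene in the reads of all 31 flp genes of a library, in percent, with exact binomial 95% intervals, in order of L1 reads. The young adult intervals of flp-24 and flp-10 lie above those of the L1 library, and those of flp-9, flp-1 and flp-14 overlap.

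Genes listed under peptide processing, which include the peptidase gene nep-1, were measured beside the flp genes. Of 8 processing genes, 5 were called higher in the L1 than in the embryo library and 1 lower (kpc-1). In the young adult library 6 of them were called lower than in the L1 library, with nep-1 included, and 0 higher. The median log2 ratios of the 8 were 4.44 and -4.28. The carboxypeptidase gene egl-21 had 48 embryo, 1427 L1 and 97 young adult reads. The gene sbt-1, for the chaperone of the convertase EGL-3, had 40 embryo, 1131 L1 and 82 young adult reads. The amidation gene pghm-1 had 14, 617 and 40 reads, and the convertase gene egl-3 itself 12, 588 and 15. Unlike these, kpc-1, another convertase gene, had 123 embryo, 36 L1 and 22 young adult reads, and was not called lower with TMM factors. The joint processing share was 21.9-fold lower in the young adult than in the L1 library (19.4 to 24.7), a larger difference than that of the flp genes. In the young adult library it was 2.12-fold below the embryo share (1.81 to 2.49), or 1.22-fold with TMM factors, whereas the flp share was above its embryo share. Called lower in this pair were kpc-1, pamn-1 (not with TMM factors) and nep-1, against 29.3% of all genes measured. They had 123, 50 and 66 of the list's 360 embryo reads, and 22, 14 and 7 young adult reads. The other 5, those called higher in the L1 than in the embryo library, were not called in this pair.

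Of 7 genes of dense-core vesicle formation and release, 5 were measured between the L1 and embryo libraries, with 1 higher (ida-1) and 1 lower (hid-1, not with TMM factors). Over all genes measured, 13.4% were higher and 33% lower. The vesicle membrane gene ida-1 had 55 embryo, 238 L1 and 33 young adult reads. Of 14 genes for receptors reported for FLP peptides, only dmsr-1 and npr-5 had enough reads in that pair, and neither was called, though dmsr-1 was with TMM factors. The receptor gene dmsr-1 had 12 embryo, 35 L1 and 8 young adult reads and was called lower in the young adult than in the L1 library (6.93-fold, 3.16 to 17.3). No reads were seen for npr-1 and frpr-4 in any library. The receptors together had 39 embryo, 97 L1 and 34 young adult reads, so most could not be compared at this depth.

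The 12 pan-neuronal genes had 904 embryo, 772 L1 and 542 young adult reads together, or 960, 759 and 336 RPM. Between the L1 and embryo libraries 9 were measured, with 0 higher and 1 lower (unc-119), or 1 higher (ric-4) and 0 lower with TMM factors, and the joint share was 1.27-fold lower by library totals (1.15 to 1.39) but 1.45-fold higher with TMM factors (1.31 to 1.60). The median log2 ratio was -0.45 by library totals. Between the young adult and L1 libraries 8 were measured and 4 were lower (rab-3, snt-1, ric-4 and unc-13), with 0 higher. The median log2 ratio was -1.88 and the joint share 2.26-fold lower (2.02 to 2.52), the same direction as the flp genes. Over all genes measured, 13.4% were higher and 33% lower in the first pair by library totals, and 14.5% higher and 14.2% lower in the second. The synaptic vesicle gene snb-1 had 438, 338 and 393 reads, rgef-1 had 0, 2 and 0, and snn-1 was at 0 in young adults after 6 reads in each of the others. Divided by the reads of this list instead of the library total, an alternative added after the data were seen, the joint flp ratio was 36.0 (31.4 to 41.5) for L1 over embryo. It was 0.170 (0.157 to 0.183) for young adult over L1 and 6.11 (5.25 to 7.14) for young adult over embryo. These rescaled ratios lean on snb-1, which held 438 of 904 embryo, 338 of 772 L1 and 393 of 542 young adult reads of the list. The list without snb-1 was not tried. The 8 germline genes had 374 embryo, 187 L1 and 2366 young adult reads, 7.99-fold higher in the young adult than in the L1 library (6.88 to 9.32). In that pair 5 of the 8 were called higher and 0 lower, against 14.5% and 14.2% of all genes measured. The 8 body wall muscle genes had 2166 embryo, 4158 L1 and 8136 young adult reads. As a joint share this was 1.235-fold higher in the young adult than in the L1 library (1.19 to 1.28). Of 7 measured in that pair, 1 was called higher (tnt-2, not with TMM factors) and 1 lower (myo-3). The gene pat-10 held 4729 of the 8136 young adult reads. The part of these differences in the flp result, beyond that rescaling, was not tested.

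**Figure D4:**
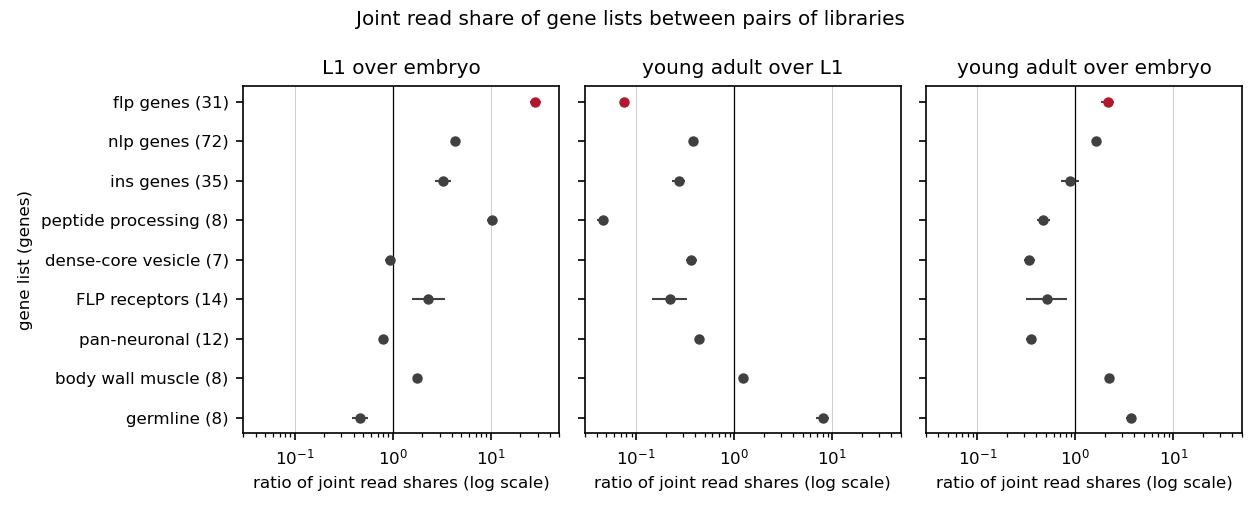
Ratio of joint read shares (log axis) of gene lists in 3 pairs of libraries, with exact 95% intervals; flp genes in red, list sizes in parentheses. The flp genes lie at 28.5 for L1 over embryo, nlp genes at 4.28 (median log2 ratio 3.69 over the 51 measured) and pan-neuronal genes at 0.791.

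The nlp and ins families, which also encode secreted peptides, had members called in both directions. The 72 nlp genes, which encode neuropeptide-like proteins of other sequence, had 1572 embryo, 7268 L1 and 4368 young adult reads. Of 51 measured between the L1 and embryo libraries, 39 were higher and 1 lower, and of 50 measured between the young adult and L1 libraries, 37 were lower and 3 higher. Over all genes measured, 13.4% were higher and 33% lower in the first pair, and 14.5% higher and 14.2% lower in the second. Genes with few embryo reads, such as nlp-20 with 0, passed the minimum through their L1 reads, so these counts are a description too. The joint nlp share was 2.64-fold lower in the young adult than in the L1 library (2.54 to 2.74). The median log2 ratio was 3.69 for L1 over embryo and -3.13 for young adult over L1. The median member thus lay nearer to that of the flp genes than the joint share did, and nlp-77, nlp-24, nlp-27 and nlp-40, picked after their values were seen, held 1383, 594, 519 and 432 of the young adult reads. The 35 ins genes, for insulin-like peptides, had 147, 519 and 223 reads. Of 11 measured between the L1 and embryo libraries, 7 were higher and 3 lower, against 13.4% and 33% of all genes measured.

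Many of the flp genes lie on chromosome X. Of the 31, 13 are there (41.9%), against 13.8% of 14672 coding genes. The 13 X-linked members had a joint L1 share 27.2-fold the embryo share (21.6 to 34.8), and the 18 autosomal members 29.1-fold (24.6 to 34.7). The annotation places 9 members partly or wholly over a coding gene of the other strand, and the sources do not say whether counting used the strand. The genes that span a member had few reads: daf-10, which spans flp-1, had 4 embryo, 1 L1 and 2 young adult reads, and W07E11.1, which spans flp-2, flp-3 and flp-28, had 12, 11 and 10. Those 12 embryo reads exceed the 1, 1 and 3 embryo reads of these members, and the 10 young adult reads lie above the 2 of flp-2 and near the 11 of flp-28. For C25H3.11, which spans flp-27, there were 16, 6 and 9 reads, close in size to the 14 embryo and 8 young adult reads of flp-27. The other 4 overlaps run over 5 to 17 bases, and of those partners romo-1, which meets flp-16, had 30 embryo, 45 L1 and 162 young adult reads. The 22 members with no such overlap had a joint L1 share 32.6-fold the embryo share (27.4 to 39.1), and the 9 with one 21.9-fold (17.6 to 27.7). For young adult over embryo the joint ratios were 2.60 (2.15 to 3.17) without an overlap and 1.42 (1.09 to 1.85) with one, and these intervals were apart. The 9 include the 4 members that overlap by only 5 to 17 bases, and whether overlap has a part in this gap was not tested.

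Isoforms of the members were mostly known only by a read identifier. The table had 603 isoform rows for the 31 genes, of which 36 carried an annotated transcript name, and those held 10.9% of flp reads, against 17% over all genes. The median was 16 rows per member, 6 of them with at least 2 reads, and 11 members had no read in an annotated row. The gene flp-1 had 63 rows, 26 with at least 2 reads, and its leading row held 19% of its reads. By contrast flp-17 had 7 rows, and the leading one held 94.9%. The annotated rows with most reads were flp-14 transcript Y37D8A.15.2 with 135 reads, flp-22 transcript F39H2.1.2 with 133.8 and flp-24 transcript C24A1.1.2 with 105.5.

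The share of the leading isoform could be compared for 15 members with at least 20 reads in both the L1 and young adult libraries, and its intervals overlapped for all 15. For flp-22 the share was 57% in L1 larvae (52.1 to 61.9) and 70.8% in young adults (55.9 to 83.05), and for flp-12 60.4% (55.6 to 65.0) and 73.2% (59.7 to 84.2). For flp-1 it was 19% (16.2 to 22.2) and 17.6% (9.46 to 28.8). The adult intervals are wide, so moderate differences were not detectable at this depth. In 228 of 241 flp rows with at least 2 reads, a single denominator of at most 200 turned the parts of all 3 libraries into whole numbers (each numerator within 0.0001). How the authors assigned isoform reads to libraries is not stated, and it bears on how far these shares can differ.

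**Figure D5:**
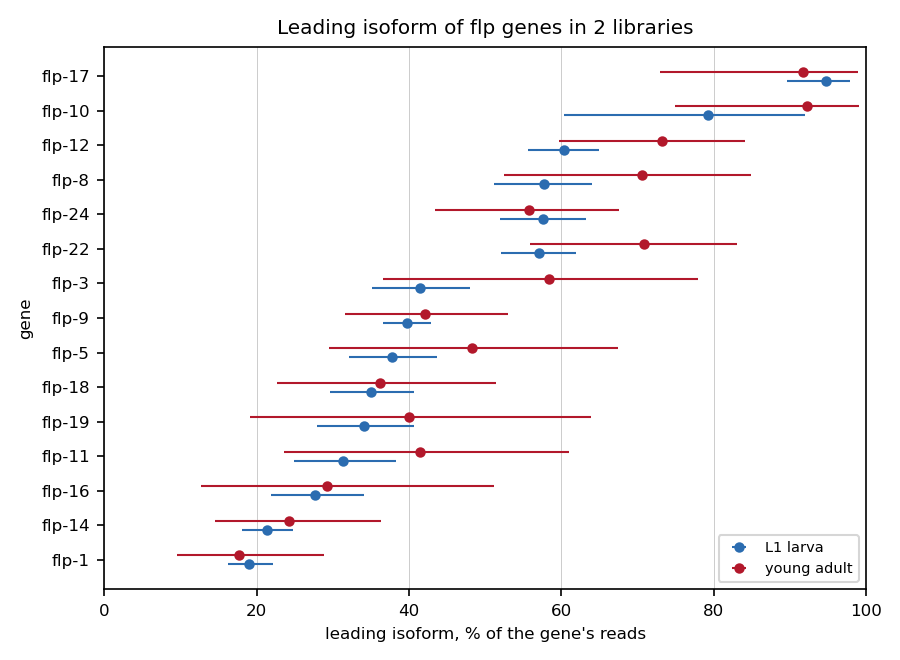
Share of the leading isoform in the reads of its gene, in percent, in the L1 and young adult libraries for the 15 flp genes with at least 20 reads in both, with exact binomial 95% intervals. The intervals of the 2 libraries overlap for all 15 genes, from flp-1 near 19% to flp-17 near 94.8% in the L1 library.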

How the data were processed

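Per the labels' protocols, base calling used Albacore 2.0.1 under MinKNOW 2.1, and alignment software listed per the submitters' processing notes is minimap2 (version 2.14). Nothing used here states the build, annotation, isoform caller, strand use or filters. In the deposited series table are the authors' estimated counts per isoform and library, not scaled for depth (941707 to 1611049 reads), with 1e-08 standing for 0. These were summed per gene and rounded. Before rounding, 1 of 89 nonzero member values was a whole number (within 0.0001). The deposited per-sample tables gave the symbols (10 turned into dates were restored) and a coverage signal headed Cpm, which for 89 of 89 nonzero member values was 1.326721 times the estimated counts (relative tolerance 0.0001) and was not used further.

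Ratios of read shares have exact conditional binomial 95% intervals, and against 0 reads the lower bound is given. All 19194 genes were compared in 3 pairs. Log2 ratios have 0.5 read added. With 1 library per group no p-value is given. The members, lists and roles were chosen with earlier results of these data known. Values were printed for every member, and for up to 4 genes per list with most reads, with further genes named where a count was small, chosen after their values were seen. Positions are from Ensembl release 115 (WBcel235). The comparison was tested on simulated whole reads with counting error alone, a simpler setting than these estimated counts. Alternatives used edgeR 4.0.16 TMM factors, DESeq2 1.42.0 size factors, other read minimums and bounds, and annotated rows alone. Python 3.11.15, scipy 1.17.1 and R 4.3.3 were used. Protein and promoter sequences were not used here.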

Additional observations from a re-analysis of the deposited data

How the results depend on the processing

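No paired analysis was possible because each stage had 1 library. The joint flp ratio kept its direction in all 3 pairs under every alternative tried. Library values of an isoform row may be parts of a pooled estimate, so annotated rows alone and read identifier rows alone may not be independent checks. For L1 over embryo the joint flp ratio ranged from 27.5 with read identifier rows alone to 54 with DESeq2 size factors. For young adult over L1 it ranged from 0.0697 without ribosomal protein genes to 0.170 scaled by the neuron list. For young adult over embryo the nearest bound passed 2-fold with TMM factors (3.73), DESeq2 size factors (3.83), without ribosomal protein genes (2.65) and scaled by the neuron list (6.11), and its 5 higher calls became 8, 9, 6 and 12 in that order. They became 10 with a bound past 1, where 1 member was lower, 1 with a 4-fold bound and 0 with annotated transcript rows alone. Annotated rows alone left 10 members called in each of the other pairs, on fewer reads. The median log2 ratio for L1 over embryo was 5.59 with TMM factors, 5.64 with DESeq2 size factors and 4.36 with 2 reads added, and that for young adult over L1 was -3.55 with 2 reads added. For young adult over embryo it was 2.05 with TMM factors, 2.09 with DESeq2 size factors and 0.74 with no read minimum. Single members not called between the young adult and embryo libraries turned direction. With TMM factors, DESeq2 size factors, no ribosomal protein genes and annotated rows, flp-11 gave ratios of 1.73, 1.79, 1.23 and 1.39. With TMM, DESeq2 and annotated rows flp-15 gave 1.17, 1.21 and 1.11, and with TMM, DESeq2 and no ribosomal protein genes flp-19 gave 1.45, 1.5 and 1.03. The cause was not tested. With at least 5 reads, 18 members were detected in the embryo library instead of 28. At the depth of the embryo library, 31 members would be expected among L1 reads and 29.7 among young adult reads, and most embryo values rest on few reads.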
